A study of Homo sapiens with 15 samples.

Results

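The genes described here encode the subunits, activators, inhibitor and assembly chaperones of the proteasome. They were taken as every row of the count matrix whose gene symbol is PSM followed by a letter from A to G and a number, which gave 48 of 41412 rows. Of these, 46 had enough reads to be tested, among 18380 tested genes in all. The other 2, PSMA8 (an alpha subunit known from the testis) and PSMB11 (the beta subunit known from thymic epithelium), had at most 4 counts in any library.

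The proteasome is the barrel-shaped protease that degrades ubiquitin-tagged proteins. Its core particle stacks rings of alpha subunits (PSMA genes) around rings of beta subunits (PSMB genes), and PSMB5, PSMB6 and PSMB7 encode the precursors of the catalytic ones. The 19S cap opens the core: ATPases (PSMC genes) unfold the substrate, and the base and lid subunits (PSMD genes) bind and remove ubiquitin. Interferon exchanges the catalytic subunits for PSMB8, PSMB9 and PSMB10, which form the immunoproteasome, and induces PSME1 and PSME2, the 11S activator. A shortage of proteasome activity is known to raise the genes of nearly all subunits at once, through the transcription factor NRF1 and antioxidant response elements in their promoters.

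RNA was sequenced from HepG2, a permanent line grown from a human liver cancer and labelled wild type, in 5 groups of 3 libraries whose titles call them biological replicates. One group was left untransfected. In the other 4, each well received 1 µg of mRNA for the reporter eGFP through the lipid nanoparticle reagent NanoLNP: non-cloaked mRNA, or mRNA cloaked beforehand with the reagent CR-3 at 0.1 M for 0.5 h at 25 °C (weak-cloaked), 0.5 M for 1 h at 30 °C (medium-cloaked) or 1 M for 2 h at 37 °C (strong-cloaked). All cells were lysed at 48 h. In such bulk RNA, fewer cells of a kind and less RNA per cell cannot be told apart. No group received particles without mRNA, so particle and mRNA cannot be told apart, and p-values measure the spread between these 15 libraries.

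Library totals ran from 57128519 to 78548789 counts. Levels are given as CPM, counts scaled to a common library size by TMM, edgeR's normalization, whose factors were 1.13 to 1.15 in untransfected libraries, 1.1078 in weak-cloaked replicate 1 and 0.9231 to 1.0289 in the other 11 transfected libraries. All 10 hepatocyte markers listed were expressed, with a summed level of 18151 to 21066 CPM in untransfected and 19223 to 24945 CPM in transfected libraries. Of 10 leukocyte markers, PTPRC and MS4A1 had at most 10 counts in every library, and the summed level, 1148 to 1570 CPM in untransfected and 930.3 to 1321 CPM in transfected libraries, was nearly all LYZ. Fibroblast and endothelial markers summed to 28.1 to 53.9 CPM and 27.9 to 78.5 CPM, with COL1A2 and THY1 at 10 counts or fewer.

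Promoter windows in RefSeq (GRCh38.p14), from 250 bases before to 50 after the start, were found by symbol for 42 of the 48 genes. They were searched on both strands for the core of the antioxidant response element (TGACNNNGC), the core of the interferon-stimulated response element (GAAA, any 2 bases, GAAA) and the NF-Y box (CCAAT). The first was in 13 of 42 windows (30.95%), against 13.56% of 27305 RefSeq windows. The second was in 6 (14.29%, against 3.65%) and the third in 19 (45.24%, against 35.7%). A match is a stretch of letters, not a measured binding site.

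The next 6 stretches belong to genes called below: PSMB10, PSME1 and PSME2 share an identical interferon-type match, and PSMB3, PSMD9 and PSMD5 hold antioxidant-type matches. Each runs from 180 bases before to 20 after the RefSeq start, 5′ to 3′ in the direction of transcription, and capitals mark the matches to the 3 motifs, on either strand. They lie at chr16:67936831-67937030 (minus strand), chr14:24136014-24136213 (plus), chr14:24146591-24146790 (minus), chr17:38752561-38752760 (plus), chr12:121888610-121888809 (plus) and chr9:120842903-120843102 (minus).
PSMB10: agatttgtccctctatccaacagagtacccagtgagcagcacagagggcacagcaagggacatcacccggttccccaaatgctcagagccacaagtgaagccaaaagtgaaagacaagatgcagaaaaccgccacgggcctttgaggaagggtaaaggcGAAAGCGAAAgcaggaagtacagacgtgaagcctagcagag
PSME1: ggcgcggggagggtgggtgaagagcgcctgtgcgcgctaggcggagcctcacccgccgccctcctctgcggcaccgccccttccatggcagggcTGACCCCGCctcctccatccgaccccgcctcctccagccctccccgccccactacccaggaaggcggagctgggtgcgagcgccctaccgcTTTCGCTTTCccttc
PSME2: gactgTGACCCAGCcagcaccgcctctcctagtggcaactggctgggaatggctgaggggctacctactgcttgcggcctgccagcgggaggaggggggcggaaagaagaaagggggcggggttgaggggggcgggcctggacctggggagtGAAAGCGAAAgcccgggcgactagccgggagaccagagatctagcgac
PSMB3: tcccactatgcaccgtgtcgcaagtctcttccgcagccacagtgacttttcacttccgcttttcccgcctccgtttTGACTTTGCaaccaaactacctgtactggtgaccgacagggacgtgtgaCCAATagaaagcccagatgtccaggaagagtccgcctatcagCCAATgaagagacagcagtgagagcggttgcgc
PSMD9: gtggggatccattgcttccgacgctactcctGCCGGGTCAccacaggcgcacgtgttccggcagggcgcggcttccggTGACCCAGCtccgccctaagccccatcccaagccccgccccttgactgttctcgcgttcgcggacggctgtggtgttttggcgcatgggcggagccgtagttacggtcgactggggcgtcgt
PSMD5: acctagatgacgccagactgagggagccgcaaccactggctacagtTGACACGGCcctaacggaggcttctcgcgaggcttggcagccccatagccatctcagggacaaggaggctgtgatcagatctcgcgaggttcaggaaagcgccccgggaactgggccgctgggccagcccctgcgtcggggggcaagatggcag

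PSMB10, PSME1 and PSME2 hold the same match, GAAAGCGAAA, within 30 bases of the start: its first base is at -21 in PSMB10, at -28 in PSME2 and at 6, on the opposite strand, in PSME1. PSMG4 holds it too, at -33. No match to that motif was in the windows of PSMB8 or PSMB9. The antioxidant-type match was found in 4 of the 6 genes with a window that were called higher below, in 1 of 3 called lower and in 8 of 31 not called. For the interferon-type match these counts were 3, 0 and 3, and for the NF-Y box 2, 2 and 14. The stretches above were chosen from called genes with an antioxidant-type or interferon-type match. PSMD8, PSMA3 and PSMD6, also called, held only the NF-Y box. Whether calls go with a motif was not tested.

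The widest comparison set the 4 transfected groups together against untransfected cells. PSMB10, PSMB3, PSMD9, PSMD8, PSME1, PSMB6 and PSME2 rose, and PSMD5, PSMA3 and PSMD6 fell, by edgeR's quasi-likelihood test at a Benjamini-Hochberg adjusted p below 0.05 (called, from here on). That is 10 of 46 genes (21.7%), beside 23.1% of all tested genes. The 7 called higher stand beside a background of 10.4%, and the 3 called lower beside 12.7%. The median log2 fold change was 0.08 over the 46 genes and -0.05 over all tested genes. The proteasome genes were therefore called about as often as other genes. No estimate of this fit reached a factor of 2 (log2 fold changes of -0.82 to 0.62). PSMD5 had -1.04 with total-count scaling, and PSMB8 had 1.17 without untransfected replicate 1. For genes with wide intervals a change of that size is not excluded.

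**Figure D1:**
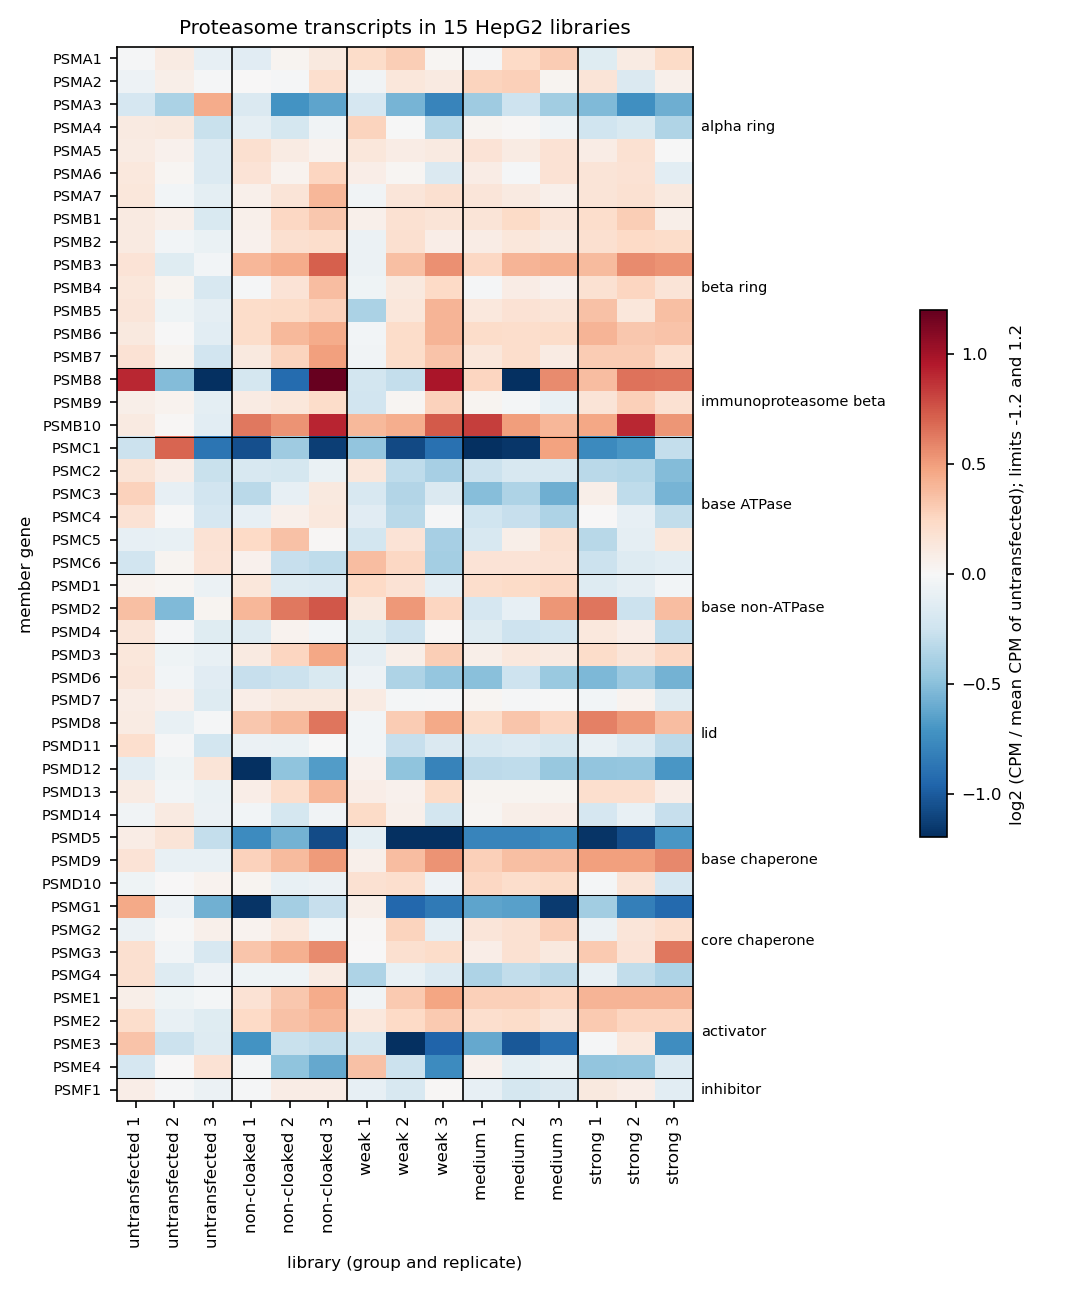
Level of the 46 tested proteasome genes (vertical axis, grouped by role) in the 15 libraries (horizontal axis) as log2 of CPM over the mean CPM of the untransfected group; colours stop at -1.2 and 1.2. PSMB10, PSMB3, PSMD8 and PSMD9 are redder and PSMD5 and PSMD6 bluer in transfected libraries, while weak-cloaked replicate 1 is pale in most of these genes.

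The rises depended on how the libraries were scaled. With scaling to the total count alone, 0 genes were called higher by edgeR (19 of the 46 had an unadjusted p below 0.05 in either direction) and 13 lower. These 13 of 46 stand beside 28.9% of all tested genes called with that scaling, 945 of the 5303 calls being higher. The share of all tested genes at that unadjusted p is not given here. That scaling moved the median of all tested genes from -0.05 to -0.28, and the share of all calls that were higher from 44.9% to 17.8%. The 7 genes called higher still had positive values (PSMB10 0.39, PSME2 0.03), and PSMD5, PSMA3 and PSMD6 were called lower under this scaling also. DESeq2 and RLE size factors each gave the same 10 calls.

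**Figure D2:**
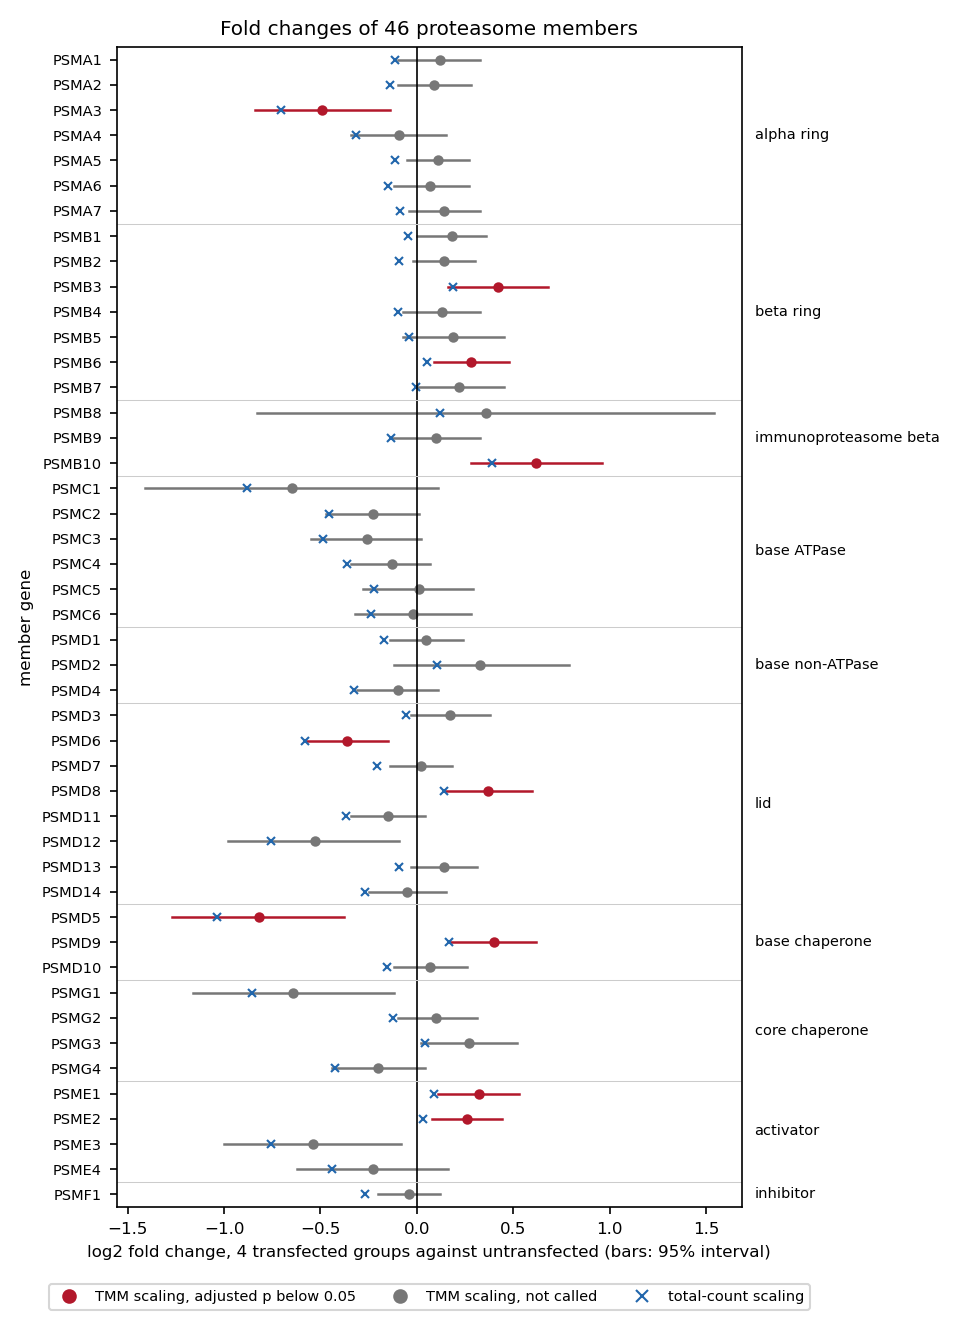
Log2 fold change of each tested proteasome gene, 4 transfected groups against untransfected. Dots with bars give the TMM-scaled estimate and its 95% interval, red where called, and crosses give the estimate under total-count scaling, which lies to the left of the dot for all 46 genes.

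The 7 constitutive alpha ring genes were at 62.7 (PSMA3) to 357 CPM (PSMA6) in untransfected cells, and 1 of them was called. PSMA3 (chr14:58244831-58272012, plus strand), a subunit of that ring, was at 54.4, 48.1 and 85.5 CPM in untransfected replicates 1 to 3. It was at 55.4, 38.2 and 40.3 CPM in the non-cloaked, 54.4, 42.7 and 36.1 in the weak-cloaked, 46.6, 52.8 and 46.8 in the medium-cloaked and 43.5, 37.7 and 41.8 in the strong-cloaked libraries. Untransfected replicate 3 was above all other libraries, 9 of the 12 transfected libraries lay below the untransfected range, and 3 lay within it. PSMA3 fell, with a log2 fold change of -0.49 ± 0.16 (SE, adjusted p = 0.045) in edgeR's quasi-likelihood test. The call was lost with no filter, with the replicate block and in 12 of the 15 fits that left out 1 library, and without untransfected replicate 3 the value was -0.21 (adjusted p = 0.42, edgeR). The other 6 genes had log2 fold changes of -0.09 (PSMA4) to 0.14 (PSMA7). With total-count scaling all 7 estimates were below 0, against 2 with TMM.

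All 7 constitutive beta ring genes had positive estimates, with a median log2 fold change of 0.19, and 2 of them, PSMB3 and PSMB6, rose. With total-count scaling 5 of the 7 estimates were below 0, PSMB5 at -0.04 and PSMB7 at -0.01 among them. PSMB3 (chr17:38752736-38764231, plus strand), a non-catalytic beta subunit, was at 359.9, 291 and 314 CPM in untransfected replicates 1 to 3. It was at 424, 438 and 529 CPM in the non-cloaked, 306, 412 and 470.0 in the weak-cloaked, 381, 427 and 432 in the medium-cloaked and 419, 475 and 466 in the strong-cloaked libraries. Of the 12 transfected libraries 11 lay above the untransfected range, and weak-cloaked replicate 1 lay within it. The log2 fold change was 0.42 ± 0.12 (SE, adjusted p = 0.023) in edgeR's test. With length and GC offsets it was 0.18 (adjusted p = 0.13, edgeR) and not called.

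PSMB6 (chr17:4796144-4798503, plus strand), the caspase-like catalytic subunit, was at 187, 172 and 158 CPM in untransfected replicates 1 to 3. Transfected libraries had 201, 226 and 235 CPM in the non-cloaked, 168, 201 and 228 in the weak-cloaked, 200.4, 199.9 and 200.3 in the medium-cloaked and 229, 216 and 219 in the strong-cloaked libraries. Here too 11 libraries lay above the untransfected range and weak-cloaked replicate 1 within it, and the log2 fold change was 0.28 ± 0.09 (SE, adjusted p = 0.04) in edgeR's test. With total-count scaling and with offsets for length and GC content it was 0.05 and not called. The call was also lost with no filter, with the replicate block and in 12 of the 15 fits that left out 1 library. PSMB5, the chymotrypsin-like subunit, was at 352, 306 and 296 CPM in untransfected replicates 1 to 3 and at 369.6, 374 and 385 CPM in the non-cloaked, 245, 349 and 421 in the weak-cloaked, 347, 358 and 353 in the medium-cloaked and 407, 350.1 and 408 in the strong-cloaked libraries. Its groups overlapped, with weak-cloaked replicate 1 the lowest of all 15, and its log2 fold change of 0.19 ± 0.12 (SE, adjusted p = 0.28) in edgeR's test was not called. PSMB7, the trypsin-like subunit, was at 265, 240.5 and 201 CPM in untransfected replicates 1 to 3 and at 256, 283 and 330.3 CPM in the non-cloaked, 229, 274 and 299 in the weak-cloaked, 259, 272 and 252 in the medium-cloaked and 290.3, 291 and 271 in the strong-cloaked libraries. Of the 12 transfected libraries 8 lay above the untransfected range and 4 within it, and its log2 fold change was 0.22 ± 0.10 (SE, adjusted p = 0.14) in edgeR's test. The other 3 genes, PSMB1, PSMB2 and PSMB4, had values of 0.13 to 0.18, and PSMB2 was called higher with length and GC offsets (0.27).

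**Figure D3:**
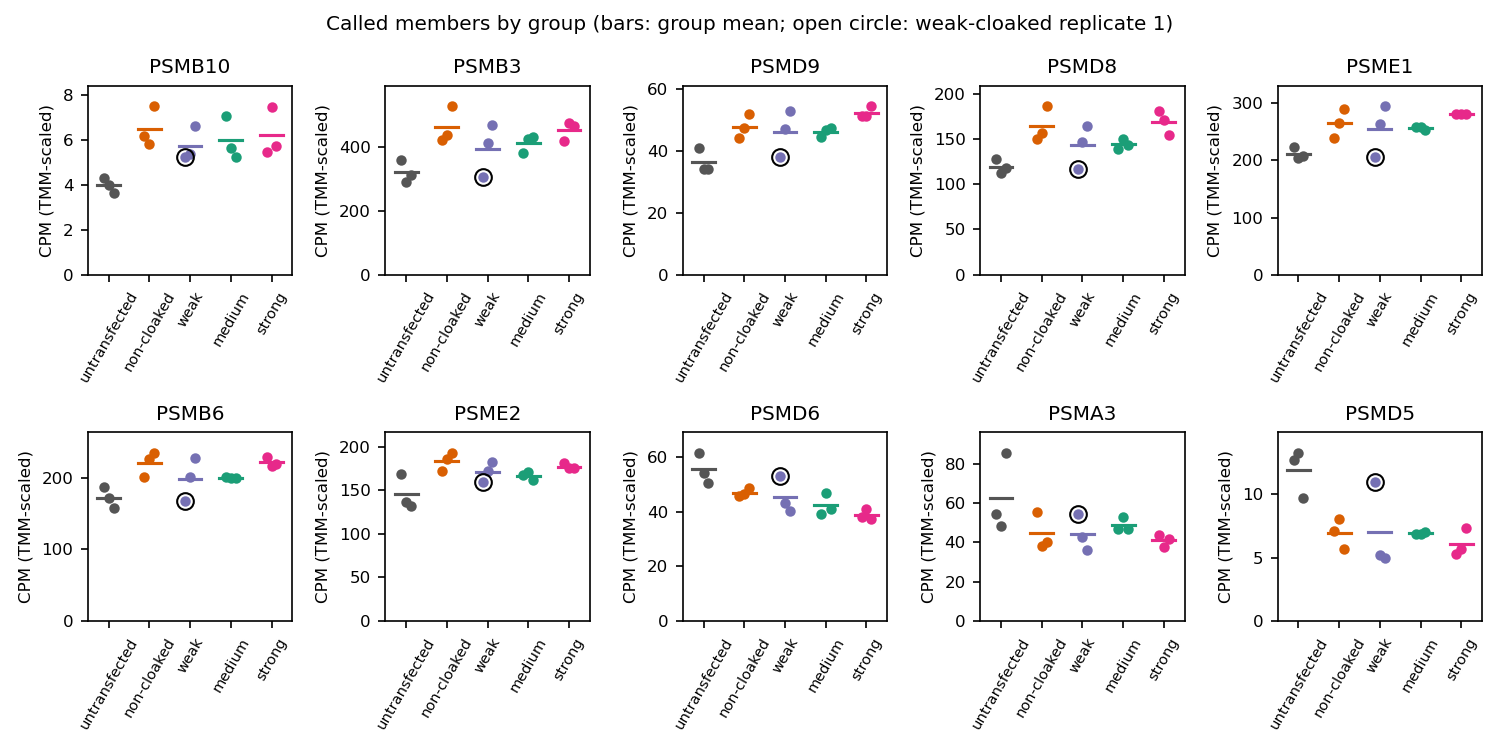
TMM-scaled CPM (vertical axis, from 0) of the 10 called genes in each library, by group, with group means as bars. The open circle is weak-cloaked replicate 1, which lies within the untransfected range in 9 of the 10 genes, PSMB10 being the exception.

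Of the 3 immunoproteasome genes only PSMB10 was called. PSMB10 (chr16:67934502-67937087, minus strand, GRCh38), which replaces PSMB7, was at 4.28, 4.00 and 3.64 CPM in untransfected replicates 1 to 3. It was at 6.16, 5.79 and 7.49 CPM in the non-cloaked, 5.21, 5.38 and 6.62 in the weak-cloaked, 7.05, 5.63 and 5.23 in the medium-cloaked and 5.47, 7.46 and 5.74 in the strong-cloaked libraries. No transfected library overlapped the untransfected range, and the log2 fold change was 0.62 ± 0.16 (SE, adjusted p = 0.014) in edgeR's test. The call was lost with total-count scaling and with length and GC offsets plus the replicate block. Without untransfected replicate 2 or 3 it was lost too. PSMB10 was the only proteasome gene with all 3 untransfected libraries below all 12 transfected ones (1 of 46, 2.2%, beside 5.12% of tested genes). No proteasome gene had all 3 above (background 5.74%).

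PSMB9, which replaces PSMB6 and lies beside PSMB8 and TAP1 on chromosome 6, was at 15.4, 15.1 and 13.5 CPM in untransfected replicates 1 to 3 and at 15.7, 16.1 and 17.1 CPM in the non-cloaked, 12.5, 14.9 and 17.8 in the weak-cloaked, 15, 14.4 and 13.8 in the medium-cloaked and 16.3, 17.9 and 16.6 in the strong-cloaked libraries. The groups overlapped, the log2 fold change was 0.10 ± 0.11 (SE, adjusted p = 0.58) in edgeR's test, and the sign turned with total-count scaling (-0.13) and with offsets for length and GC content (-0.17). PSMB8, which replaces PSMB5, was at 30.7, 11.5 and 7.13 CPM in untransfected replicates 1 to 3 and at 14.2, 8.69 and 48.2 CPM in the non-cloaked, 14.1, 13.5 and 32.4 in the weak-cloaked, 19.7, 7.15 and 24.4 in the medium-cloaked and 21.2, 25.9 and 25.7 in the strong-cloaked libraries. Its levels differed several-fold within most groups, and 10 of the 12 transfected libraries lay within the untransfected range. The 95% interval of its log2 fold change, 0.36, ran from -0.83 to 1.54, so its direction was not resolved (adjusted p = 0.68, edgeR). TAP1, the peptide transporter gene beside it, had its highest level, 57.3 CPM, in the same library as PSMB8 (non-cloaked replicate 3, 48.2 CPM). Exons of PSMB8, PSMB9 and the antisense transcript PSMB8-AS1 overlap, and the strand setting of the counting is not given in the sources used here, so these counts are uncertain.

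Ratios of an immunoproteasome gene to its constitutive counterpart, per base of transcript within a library, do not depend on library scaling. The PSMB10 to PSMB7 ratio was 1.30% to 1.45% in untransfected and 1.52% to 2.19% in transfected libraries (median 1.74%), with no overlap. Weak-cloaked replicate 1 had 1.83% and was not apart from the other transfected libraries in this ratio. GC content is 60.1% in PSMB10 and 49.9% in PSMB7, and its part in this ratio was not tested. How often ratios of other gene pairs show no overlap was not counted. The PSMB9 to PSMB6 ratio went the other way, 8.93% to 9.54% against 7.51% to 9.03% (median 8.10%), with overlap. The PSMB8 to PSMB5 ratio was 2.77% to 10.0% against 2.30% to 14.4%, with full overlap. As counted, each immunoproteasome transcript was thus at most 14.4% of its counterpart in every library. Exons of PSMB10 overlap AC040162.1 on the same strand, so its counts are uncertain, as are those of PSMB8 and PSMB9.

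**Figure D4:**
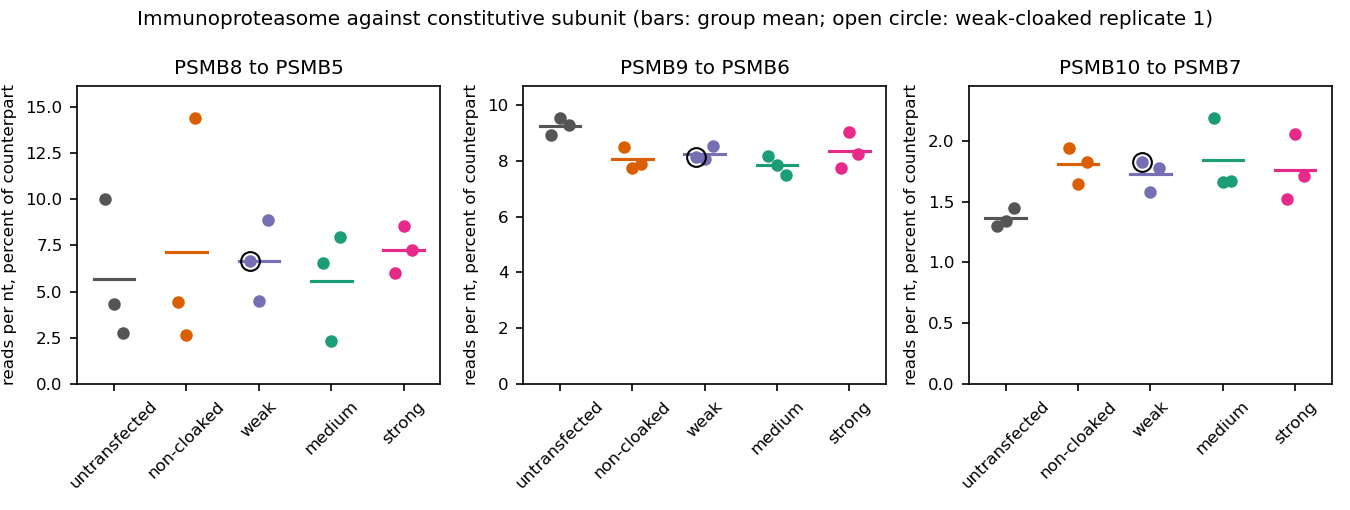
Reads per base of the immunoproteasome gene as a percent of those of its constitutive counterpart (vertical axis, from 0) in each library, by group, with group means as bars and weak-cloaked replicate 1 circled. The untransfected libraries lie below all transfected ones for PSMB10 to PSMB7 (1.30% to 1.45% against 1.52% to 2.19%) and overlap them in the other 2 pairs.

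Of the cap, none of the 6 base ATPases was called, although 5 of 6 estimates were below 0 (median -0.18, with total-count scaling -0.41 and 6 of 6). With total-count scaling PSMC2, PSMC3 and PSMC4 were called lower, and with length and GC offsets PSMC3 and PSMC4 were called lower and PSMC6 higher (0.26, against -0.02 without offsets). PSMC1 had the lowest, -0.65 ± 0.35 (SE), with levels that ran from 33.6 to 129.8 CPM. It has 13 named pseudogenes in the matrix, between which reads may be split. The 3 base subunits without ATPase activity, which include the ubiquitin receptor PSMD4 and the scaffold subunits PSMD1 and PSMD2, had values of -0.10 to 0.33, and none was called. With total-count scaling PSMD4 was called lower (-0.33), and with length and GC offsets PSMD1 was called higher (0.25).

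Of the 8 lid genes, 1 rose and 1 fell. PSMD8 (chr19:38374536-38383824, plus strand), a lid subunit, was at 128, 112 and 118 CPM in untransfected replicates 1 to 3 and at 149.5, 156 and 186 CPM in the non-cloaked, 117, 147 and 164 in the weak-cloaked, 139, 150.1 and 143 in the medium-cloaked and 181, 171 and 154 in the strong-cloaked libraries. All transfected libraries but weak-cloaked replicate 1 lay above the untransfected range, and the log2 fold change was 0.37 ± 0.11 (SE, adjusted p = 0.023) in edgeR's test. PSMD6 (chr3:64010549-64024010, minus strand), also a lid subunit, was at 61.6, 54.3 and 50.7 CPM in untransfected replicates 1 to 3 and at 45.8, 46.5 and 48.8 CPM in the non-cloaked, 53.1, 43.1 and 40.2 in the weak-cloaked, 39.3, 46.8 and 40.9 in the medium-cloaked and 38.2, 41.1 and 37.5 in the strong-cloaked libraries. Here 11 transfected libraries lay below the untransfected range and weak-cloaked replicate 1 within it. Its log2 fold change was -0.36 ± 0.10 (SE, adjusted p = 0.018) in edgeR's test. Exons of PSMD6 overlap 2 antisense genes, so its counts are uncertain in the same way as those of PSMB8.

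PSMD12, a further lid subunit, was at 73.2, 77.1 and 89.1 CPM in untransfected replicates 1 to 3 and at 23, 57.2 and 50.2 CPM in the non-cloaked, 82.8, 57 and 45.9 in the weak-cloaked, 64.2, 64.6 and 58.1 in the medium-cloaked and 57.6, 57.9 and 49.3 in the strong-cloaked libraries. Non-cloaked replicate 1 was the lowest of all libraries, 11 transfected libraries lay below the untransfected range, and weak-cloaked replicate 1 was within it. The log2 fold change, -0.53 ± 0.21 (SE, adjusted p = 0.079) in edgeR's test, was not called. It was -0.13 with length and GC offsets and -0.76, called lower, with total-count scaling. The deubiquitinase of the lid, PSMD14, had -0.05 ± 0.09 (SE), and the other 4 lid genes had -0.15 (PSMD11) to 0.17 (PSMD3). With total-count scaling PSMD11 was called lower (-0.37).

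Of the 3 chaperones that assemble the base, PSMD9 rose and PSMD5 fell. PSMD5 (S5B; chr9:120815496-120842984, minus strand), which holds the ATPase PSMC2 during base assembly, was at 12.7, 13.3 and 9.76 CPM in untransfected replicates 1 to 3. It was at 7.08, 8.06 and 5.67 CPM in the non-cloaked, 11, 5.19 and 4.99 in the weak-cloaked, 6.89, 6.89 and 7.00 in the medium-cloaked and 5.28, 5.7 and 7.34 in the strong-cloaked libraries. The 11 transfected libraries other than weak-cloaked replicate 1 had 4.99 to 8.06 CPM, all below the untransfected range. The log2 fold change was -0.82 ± 0.21 (SE, adjusted p = 0.014) in edgeR's test, the largest in size of the 46.

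PSMD9 (p27; chr12:121888731-121918297, plus strand), a chaperone of the ATPases PSMC3 and PSMC6, was at 40.9, 34.3 and 34.3 CPM in untransfected replicates 1 to 3 and at 44.2, 47.5 and 52 CPM in the non-cloaked, 38.1, 47.2 and 52.9 in the weak-cloaked, 44.5, 46.8 and 47.3 in the medium-cloaked and 51.2, 51.3 and 54.5 in the strong-cloaked libraries. Again 11 transfected libraries lay above the untransfected range and weak-cloaked replicate 1 within it, with a log2 fold change of 0.40 ± 0.10 (SE, adjusted p = 0.017) in edgeR's test. Exons of PSMD9 overlap WDR66 on the same strand. The third such chaperone, PSMD10 (gankyrin), had 0.07 ± 0.09 (SE) and was not called.

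The chaperones of the core ring, PSMG1 to PSMG4, gave no call, although PSMG1 and PSMG4 were called lower with total-count scaling and PSMG4 with length and GC offsets. PSMG1, which works as a pair with PSMG2, was at 64.1, 45 and 31.5 CPM in untransfected replicates 1 to 3 and at 20.8, 35.3 and 38.6 CPM in the non-cloaked, 49.1, 24.4 and 26 in the weak-cloaked, 30.2, 29.9 and 21.2 in the medium-cloaked and 35.1, 26.6 and 24.6 in the strong-cloaked libraries. The 3 untransfected libraries were themselves far apart, 8 transfected libraries lay below their range, and 4 lay within it. The log2 fold change was -0.64 ± 0.24 (SE, adjusted p = 0.074) in edgeR's test. Its partner PSMG2 had 0.10 ± 0.09 (SE), PSMG3 0.27 ± 0.12 and PSMG4, which holds the same interferon-type match as PSMB10, -0.20 ± 0.11.

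Of the activators, PSME1 and PSME2, whose products together form the 11S ring, both rose. PSME1 (chr14:24136158-24138967, plus strand) was at 223, 205 and 208 CPM in untransfected replicates 1 to 3 and at 239, 266 and 289.5 CPM in the non-cloaked, 206, 263 and 295 in the weak-cloaked, 258, 258 and 254 in the medium-cloaked and 282, 281 and 281 in the strong-cloaked libraries. Weak-cloaked replicate 1 lay within the untransfected range and the other 11 transfected libraries above it. The log2 fold change was 0.32 ± 0.10 (SE, adjusted p = 0.03) in edgeR's test. PSME2 (chr14:24143362-24147570, minus strand) was at 169, 137 and 132 CPM in untransfected replicates 1 to 3 and at 172, 186 and 193 CPM in the non-cloaked, 159.9, 172 and 182 in the weak-cloaked, 168, 170.4 and 162 in the medium-cloaked and 181, 175 and 175 in the strong-cloaked libraries. Of the transfected libraries 9 lay above and 3 within the untransfected range, which untransfected replicate 1 set at its upper end, and the log2 fold change was 0.26 ± 0.08 (SE, adjusted p = 0.038) in edgeR's test. Neither gene was called with total-count scaling (0.09 and 0.03) or with length and GC offsets (0.15 and 0.10). The call of PSME2 was also lost with no filter, with the replicate block and in 11 of the 15 fits that left out 1 library. Their exons overlap EMC9 and RNF31 on the other strand.

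PSME3, the nuclear activator REGγ, was at 117, 77.3 and 83.2 CPM in untransfected replicates 1 to 3 and at 56.4, 76.7 and 75.6 CPM in the non-cloaked, 80.0, 37.5 and 47.4 in the weak-cloaked, 60.5, 45.8 and 49.4 in the medium-cloaked and 91.7, 101 and 55.2 in the strong-cloaked libraries. Of the transfected libraries 9 lay below the untransfected range, and weak-cloaked replicate 1 and strong-cloaked replicates 1 and 2 lay within it. The log2 fold change, -0.54 ± 0.21 (SE, adjusted p = 0.085) in edgeR's test, was not called, but it was with total-count scaling (-0.76), with length and GC offsets (-0.68) and without weak-cloaked replicate 1 (-0.64). PSME4 (PA200), another nuclear activator, was at 55.7, 64.4 and 72.1 CPM in untransfected replicates 1 to 3 and at 63.2, 45.9 and 41.9 CPM in the non-cloaked, 82, 53.5 and 38 in the weak-cloaked, 66.6, 58.9 and 60.5 in the medium-cloaked and 46.2, 46.3 and 57 in the strong-cloaked libraries. The groups overlapped widely, with a log2 fold change of -0.23 ± 0.18 (SE, adjusted p = 0.4) in edgeR's test that turned to 0.14 with offsets for length and GC content. PSMF1, the inhibitor PI31, had -0.04 ± 0.08 (SE) and was called lower with total-count scaling (-0.27).

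Weak-cloaked replicate 1 was nearer to the untransfected libraries than the other transfected libraries were. The rows analysed here hold no symbol for the reporter, so the label of this library could not be checked against it, and the weak-cloaked values rest on the label as given. It was the lowest of the 12 transfected libraries in 7 of 7 genes called higher and lay within the untransfected range in 6 of them. It was the highest in 2 of the 3 called lower and lay within the untransfected range in all 3. Without this library edgeR called 15 genes (8 higher, 7 lower), beside 31.5% of all tested genes, adding PSMB5 to those called higher and PSME3, PSMD12, PSMG1 and PSMC2 to those called lower. Among the other 11 transfected libraries, 6 genes lay wholly above the untransfected range (PSMD9, PSME1, PSMB10, PSMB6, PSMB3 and PSMD8, 13.0%, background 10%) and 3 wholly below it (PSMD12, PSMD6 and PSMD5, 6.5%, background 11.8%). The untransfected libraries weighed as much: without replicate 1, 2 or 3 of that group, 5, 1 and 3 genes were called, beside 13.1%, 11.4% and 14.8% of all tested genes. Without replicate 1 these were PSMD9, PSME2, PSMB10, PSMB3 and PSMD8, without replicate 2 PSMA3, and without replicate 3 PSMG1, PSMD6 and PSMD5. Each of the 10 genes called with all libraries, PSMD5 included, thus lost its call in some of these fits.

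The question of the series is whether cloaking of the mRNA changes the response, and each transfected group was first set against untransfected cells, with the same 3 control libraries in each comparison. In non-cloaked cells edgeR called 2 of 46 genes (4.3%, beside 6.5% of all genes, 3.84% higher and 2.66% lower), both higher: PSMB10 at 0.71 ± 0.19 (SE, adjusted p = 0.046) and PSMB3 at 0.53 ± 0.15 (SE, adjusted p = 0.05). In weak-cloaked cells it called 0 (beside 3.29%, of which 2.11% higher and 1.19% lower, with 8 at an unadjusted p below 0.05), and DESeq2 called 1. In medium-cloaked cells it called 0 (beside 13.7%, of which 6.25% higher and 7.49% lower, with 11 at an unadjusted p below 0.05), and DESeq2 called 4. In strong-cloaked cells it called 8 (17.4%, beside 15.1%).

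Of the 8 in strong-cloaked cells, 6 were higher (background 7.99%) and 2 lower (7.11%). The lid subunit PSMD6 fell by 0.51 on the log2 scale (adjusted p = 0.02, edgeR) and the chaperone PSMD5 by 0.97 (adjusted p = 0.036, edgeR). PSMD9 (0.52), PSMD8 (0.50), PSME1 (0.41), PSMB10 (0.65), PSMB3 (0.49) and PSMB6 (0.36) rose. With total-count scaling 0 were called higher and 8 lower, with 23 of the 46 at an unadjusted p below 0.05 in edgeR. The shares of all tested genes with that scaling are not given for strong-cloaked cells. In the pooled comparison only 17.8% of all calls were higher with it, so nothing particular to the proteasome genes follows from these counts. These per-group counts moved with single libraries: without weak-cloaked replicate 1 they were 9, 8, 7 and 11 for non-cloaked, weak-, medium- and strong-cloaked cells, and without untransfected replicate 2 they were 0 in all 4. The calls over all genes moved in the same direction, from 1195, 605, 2524 and 2776 to 3107, 4007, 3789 and 4191 without weak-cloaked replicate 1 and to 235, 194, 1140 and 948 without untransfected replicate 2. Without strong-cloaked replicate 1, 2 or 3 the strong-cloaked count was 1, 0 and 0, without medium-cloaked replicate 1, 2 or 3 it was 4, 3 and 3, and without untransfected replicate 1 or 3 or non-cloaked replicate 2 it was 3, 3 and 4. The non-cloaked count was 4 without weak-cloaked replicate 3 and 0 or 1 without any 1 of 13 others, and the medium-cloaked count was 2 without weak-cloaked replicate 3 and 1 without strong-cloaked replicate 3.

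Per group, PSMB10 had log2 fold changes of 0.71, 0.53, 0.59 and 0.65 in non-cloaked, weak-, medium- and strong-cloaked cells, and PSMD5 had -0.78, -0.76, -0.78 and -0.97. A call in 1 group and none in another does not show a difference between the groups, which was tested directly.

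Between cloaked and non-cloaked cells no proteasome gene was called. Against non-cloaked cells edgeR called 0 of 46 in weak-cloaked (beside 0.00544% of all genes), 0 in medium-cloaked (beside 0%) and 0 in strong-cloaked cells (beside 0%), with 0, 7 and 1 at an unadjusted p below 0.05, and DESeq2 called 0, 0 and 0. A joint F test over the 4 transfected groups called 0 (beside 0.00544%), with 1 gene at an unadjusted p below 0.05 and 0 called by DESeq2. That gene was PSMD1 (adjusted p = 0.99, edgeR), followed by PSMD10 (adjusted p = 0.99, edgeR). For the typical (median) proteasome gene the 95% interval of such a difference extended 0.28 each way on the log2 scale. That is the interval of a single test, and a call after adjustment over all tested genes asks for more. Differences larger than 0.28 may therefore also have gone uncalled.

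The genes of smallest p in each of these comparisons were of mixed role. In weak-cloaked against non-cloaked cells they were PSMG3, at 20.7, 23.7 and 24.1 CPM against 26, 27.8 and 30.7 CPM (log2 fold change -0.30, 95% interval -0.62 to 0.01), and the ATPase PSMC5, at 117, 152 and 103 against 160.1, 173 and 137 CPM (-0.33, -0.69 to 0.03). The first pair of groups did not overlap, the second did. In medium-cloaked cells they were the ATPase PSMC4, at 128, 125 and 117 against 141, 158 and 165 CPM (-0.33, -0.59 to -0.06), and PSMD10, at 67.3, 65.9 and 66.6 against 58.1, 53.2 and 54 CPM (0.27, 0.04 to 0.51), neither with overlap. In strong-cloaked cells they were PSMD6 (-0.27, -0.54 to -0.00), without overlap, and PSMC5 (-0.30, -0.66 to 0.06), with the strong-cloaked libraries at 108, 126 and 149 CPM and overlap. The adjusted p was 0.49 or more for all 6 in edgeR's test. These genes were picked for a small p, which favours groups that do not overlap. The share of all tested genes without overlap was not counted for these comparisons, so nothing follows from the missing overlap.

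Read together, the proteasome genes took 0.693% to 0.813% of all counts in untransfected and 0.64% to 0.753% in transfected libraries, of which 7 of 12 lay below the untransfected range. As summed TMM-scaled CPM they had 6158 to 7220 and 6556 to 7900, with overlap on both scales. The core genes outweighed the cap genes by 1.25 to 1.31 times in counts in untransfected libraries and by 1.27 to 1.55 times in transfected ones. The ratio was 1.27 in weak-cloaked replicate 1, the lowest of the transfected libraries, and 1.31 in non-cloaked replicate 2, so the ranges overlapped. Set against the geometric mean of the 46 tested proteasome genes in the same library, which removes the scaling, PSMB10, PSMD9 and PSME2 were higher in all 12 transfected than in all 3 untransfected libraries (3 of 46, 6.5%, beside 4.45% of all tested genes on that scale). PSMD6 was lower (1 of 46, 2.2%, beside 6.53%).

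The genes varied little between replicates. Their median standard deviation of log2 CPM within groups was 0.142, against 0.362 over all tested genes, and 25 of the 46 were under the 10th percentile. The sets differ in level, however: among the 4185 tested genes with an average log2 CPM of 5 to 9, the median was 0.196, and 29 of the 39 proteasome genes in that range lay below it. PSMB8 stood apart at 0.92, followed by PSMC1 at 0.61, PSMG1 at 0.44, PSME3 at 0.39, PSMD12 at 0.38 and PSMD2 at 0.36. These genes have wide intervals for that reason.

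**Figure D5:**
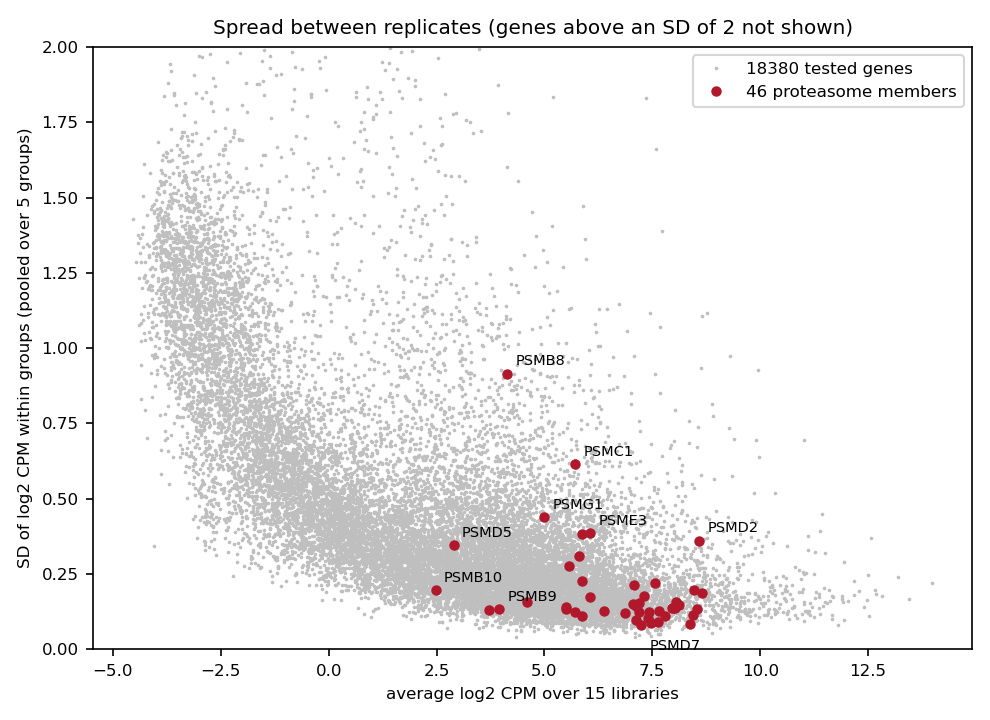
Standard deviation of log2 CPM within groups (vertical axis, pooled over the 5 groups) against average log2 CPM (horizontal axis) for all tested genes in grey and the proteasome genes in red. Most of the red points lie in the lower part of the grey cloud. At an average log2 CPM of 5 to 9, 29 of 39 are below the median of all tested genes there. PSMB8 (0.92) and PSMC1 (0.61) lie above the other red points.

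Transcript length and GC content moved with the fold change. Over the 46 genes Spearman's rho between log2 fold change and GC content was 0.52, and with transcript length -0.38, as a description across genes, which are not independent. Over the 18304 tested genes with an annotated transcript the values were 0.28 and -0.24. The 7 genes called higher had a median GC content of 54.9% (51.6% to 60.1%) and the 3 called lower 41.2% (40.7% to 46.5%). With per-library offsets for length and GC content 13 genes were called (6 higher, 7 lower), beside 23.9% of all tested genes, and 6 of the 10 were among them: PSMB10, PSMD8 and PSMD9 higher, PSMD5, PSMD6 and PSMA3 lower. The other 7 were PSMB2, PSMC6 and PSMD1, called higher, and PSMC3, PSMC4, PSME3 and PSMG4, called lower.

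Genes that work with the proteasome but carry other names were counted by list in the same pooled comparison. Their counts stand beside the same background as above, 10.4% of all tested genes called higher and 12.7% called lower, and nothing particular to a list follows from them. Of 14 tested partners, 2 rose and 3 fell (median -0.19). SEM1, the small lid subunit that is not named PSM, rose from 76.0 to 85.9 CPM in untransfected to 98.5 to 136 CPM in transfected libraries, with no overlap (log2 fold change 0.54 ± 0.09 SE, adjusted p = 0.0021, edgeR). ZFAND5, a proteasome-binding activator, rose by 0.52, USP14, a deubiquitinase of the cap, fell by 0.50, and TRIM21, a ubiquitin ligase, fell by 0.73 on the log2 scale. With length and GC offsets USP14 (-0.12, adjusted p = 0.31, edgeR) was not called. With total-count scaling 1 rose and 6 fell, and SEM1 (0.31) was the one that rose.

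Of 12 genes for ubiquitin and its activation, 4 rose and 1 fell (median 0.25). Among those that rose were the conjugating enzyme UBE2R2, by 0.39, and RPS27A, which encodes ubiquitin fused to a ribosomal protein, by 0.35 on the log2 scale. The gene that fell was UBE2D1, another conjugating enzyme (-0.95), named after its value was seen. With total-count scaling 2 rose and 3 fell, and UBE2R2 (0.16) and RPS27A (0.12) were not called. With length and GC offsets UBE2D1 (-0.47) was not called. Of 17 tested genes for shuttling and the p97 unfoldase, 1 rose (DERL1, 0.29) and 2 fell (DDI2 and UBQLN2, -0.93 and -0.73). With length and GC offsets DDI2 had -0.58 and UBQLN2 -0.50, and UBQLN2 was not called. With total-count scaling 0 rose and 5 fell.

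Of 12 regulators of proteasome gene transcription, 5 rose and 1 fell (median 0.33). MAFF and MAFK encode small MAF proteins, the partners with which NRF1 and NRF2 bind DNA, and DDI2, also in the list before, the protease that releases NRF1 from its membrane-bound precursor. MAFF rose from 26.9 to 32.6 CPM in untransfected to 36.2 to 133 CPM in transfected libraries, with no overlap (1.61 ± 0.31 SE, adjusted p = 0.0047, edgeR), and MAFK from 57.4 to 74.9 CPM to 82.1 to 194 CPM, also with no overlap (1.17 ± 0.19 SE, adjusted p = 0.0021, edgeR). DDI2 fell from 44.6 to 52.4 CPM to 14.7 to 42.4 CPM, without overlap (-0.93 ± 0.20 SE, adjusted p = 0.0064, edgeR). The NF-Y subunit NFYA rose by 0.55. With total-count scaling 2 rose (MAFF 1.36, MAFK 0.93) and 1 fell (DDI2 -1.15), and these 3 calls held with length and GC offsets too.

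Of 15 neighbours of the immunoproteasome and genes of the interferon gamma arm, 2 rose and 1 fell (median 0.32). HLA-E and B2M, the heavy chain of a class I molecule and the light chain of all of them, rose by 0.57 and 0.30, and NLRC5, the transactivator of class I genes, fell by 1.04 on the log2 scale. With total-count scaling HLA-E (0.34) and NLRC5 (-1.26) were called and B2M (0.07) was not. TAP1 was at 15.9 to 29.2 CPM in untransfected and 19.3 to 57.3 CPM in transfected libraries and was not called (adjusted p = 0.18, edgeR). In none of the 5 lists was a gene called in a cloaked group against the non-cloaked group by edgeR.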

How the data were processed

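The deposited file is a single matrix of raw counts, which the authors left unnormalized, with a row for each gene symbol and a column for each library. The libraries were poly(A)-selected and strand-specific, per the labels' protocols. Tools named in the submitters' processing notes are HISAT2, HTSeq, DESeq2 1.46.0 and R 4.4.2, with GRCh38 as build. Not given in the sources used here: the annotation release, strand setting, row filter and aligner versions. Of the 48 proteasome genes, 23 share exonic sequence with another GENCODE 29 gene and 10 have named pseudogenes in the matrix.

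Tests were run in edgeR 4.0.16 (limma 3.58.1, R 4.3.3) after filterByExpr and TMM, as a robust quasi-likelihood fit of 1 mean per group to all 15 libraries, with Benjamini-Hochberg adjustment over 18380 genes and a threshold of 0.05. The biological coefficient of variation was 0.344. CPM values were computed from the counts, and each standard error from the fold change and its F statistic. Titles gave the groups and replicates, and replicate pairs differed by far more than sampling noise. Values in every library are printed for the 12 genes of smallest p, the immunoproteasome genes with their counterparts and the activators. Between transfected groups the called genes, or the 2 of smallest p, are named, and at most 4 called genes per list. Some results that this rule names are not reported here. The genes, lists and motifs were chosen with earlier results of these data known.

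Other settings were DESeq2 1.42.0, RLE size factors, total-count scaling, no filter, a minimum of 50 counts in 3 libraries, a replicate block, length and GC offsets (loess span 0.4), a fit restricted to the groups compared, and the removal of each library in turn. Promoter windows are RefSeq's (GRCh38.p14), and transcript lengths, GC content and overlaps are from GENCODE 29.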

Additional observations from a re-analysis of the deposited data

How the results depend on the processing

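In the pooled comparison, genes called higher numbered 0 with total-count scaling, and genes called lower numbered 13 with total-count scaling and 7 with length and GC offsets, with or without the replicate block. The share of all tested genes called was 28.9% with total-count scaling, 23.9% with offsets, 13.5% with no filter and 30.1% with DESeq2. For the per-group counts below that share is not given, so nothing particular to the proteasome genes follows from them. Replicates share only a number: 2 of 30 same-numbered pairs of deviations correlated over 0.1 (-0.064 to 0.174), and 7 of 15 libraries correlated best with their own number. The replicate block gave 5 higher and 2 lower genes, without PSME2, PSMB6 and PSMA3. In non-cloaked against untransfected cells the count was 9 with DESeq2, 1 each with RLE size factors, total-count scaling and the replicate block, and 0 with no filter, with length and GC offsets (also with the replicate block) and with the compared groups alone. In weak-cloaked cells it was 1 with DESeq2 and 2 with offsets and the replicate block. In medium-cloaked cells it was 4 with DESeq2, 9 (all lower) with total-count scaling, 2 with the 50-count filter, 8 with offsets (also with the replicate block) and 4 with the compared groups alone. In strong-cloaked cells it was 5 with offsets, 3 of them higher (also with the replicate block), and 0 higher and 8 lower with total-count scaling. Leaving out 1 library at a time gave 1 to 15 in the pooled comparison (0 to 8 higher, 0 to 7 lower), 0 to 9 in non-cloaked, 0 to 8 in weak-cloaked, 0 to 7 in medium-cloaked and 0 to 11 in strong-cloaked cells (0 to 7 higher, 0 to 4 lower), and 0 in every comparison among transfected groups. Total-count scaling took 5 alpha ring and 5 beta ring estimates from above 0 to below it. Of the genes given with values in every library, signs turned for PSMB9 (-0.13 with total-count scaling, -0.17 with offsets, with or without the replicate block), PSMB5 (-0.04) and PSMB7 (-0.01) with total-count scaling, PSME4 (0.14 with offsets, with or without the replicate block) and PSMB8 (-0.01 without untransfected replicate 3, up to 1.17 without replicate 1). None of these 5 was called in a setting that turned its sign, and the cause was not tested. At this depth the spread between replicates, not counting error, limits most genes.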
